A study of Mus musculus with 6 samples.

Results

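Expression of 7 genes of the mature, nutrient-responsive beta cell was followed in cultured mouse islet cells: Ucn3, Slc2a2, Glp1r, Gipr, Ffar1, Trpm5 and Prlr. They were chosen by name, with earlier results of these data known, as probes whose RefSeq accession belongs to any of these symbols. The probe with the highest mean signal stood for its gene. All 7 were measured, of 25805 genes tested in all. Each of the 7 chosen probes was well above background on all 6 arrays. The cells were dispersed pancreatic islets of male C57Bl/6N mice, cultured for 72 h in the same medium in both groups. The control group (3 arrays) was cultured without vesicles. The exoNOD group (3 arrays) was given exosomes at 50 µg/ml; these vesicles came from cultured T lymphocytes, CD4+CD25-, whose donors were NOD mice, which are prone to autoimmune diabetes. Islets and exosomes were prepared anew for each of the 3 experiments; the age of the mice is not given in the sources used here. Exosomes of NOD lymphocytes and exosomes of any other source cannot be told apart in this comparison.

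Beta cells release insulin when nutrients are metabolised or sensed at the cell surface. Glucose enters the rodent beta cell mainly through the transporter GLUT2, and the ATP made from it closes potassium channels, depolarises the membrane and opens calcium channels. Receptors for the gut incretins raise cAMP and strengthen this response, and receptors for fatty acids act beside them. Some of these genes reach their full level only as the beta cell matures after birth, and urocortin 3 is widely used as a marker of that mature state.

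The promoters of Slc2a2, Ucn3 and Trpm5, the 3 genes whose falls below also passed after scaling to beta cell markers, are shown for context, as the 250 bases before the annotated start on the gene's own strand (RefSeq, GRCm38.p6). Capitals mark matches, on either strand, to any of 6 short motifs of factors active in islets or in receptor signalling.

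Slc2a2, chr3:28697653-28697902, plus strand: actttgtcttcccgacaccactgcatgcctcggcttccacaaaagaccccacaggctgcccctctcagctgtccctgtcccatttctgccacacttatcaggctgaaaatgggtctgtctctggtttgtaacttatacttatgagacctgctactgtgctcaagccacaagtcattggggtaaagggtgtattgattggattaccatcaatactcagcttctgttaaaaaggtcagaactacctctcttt
Ucn3, chr13:3945350-3945599, minus strand: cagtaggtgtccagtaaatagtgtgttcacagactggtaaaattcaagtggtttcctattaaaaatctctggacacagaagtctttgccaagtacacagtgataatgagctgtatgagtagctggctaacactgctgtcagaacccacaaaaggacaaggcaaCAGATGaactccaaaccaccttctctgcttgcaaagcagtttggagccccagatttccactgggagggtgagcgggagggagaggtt
Trpm5, chr7:143094643-143094892, minus strand: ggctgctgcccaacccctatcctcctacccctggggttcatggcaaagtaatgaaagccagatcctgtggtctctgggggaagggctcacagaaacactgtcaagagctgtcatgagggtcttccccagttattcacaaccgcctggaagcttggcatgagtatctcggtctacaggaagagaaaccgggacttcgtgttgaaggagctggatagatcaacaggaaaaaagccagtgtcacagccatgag

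The motifs searched were the MAF half-site TGCTGA, the homeodomain core TAATTA, the HNF1 half-site GTTAAT, the FOXA site TGTTTAC, the STAT site TTCNNNGAA and the NEUROD-type E-box CATCTG. Ucn3 held 1 match, an E-box 87 bases before the start, and the windows of Slc2a2 and Trpm5 held none. Of 32851 promoter windows of this length in the table, 14.4% held that E-box, 16.1% the MAF half-site, 4.84% the homeodomain core, 6.43% the HNF1 half-site, 3.17% the FOXA site and 7.02% the STAT site. The table held 8 windows for 6 of the 7 genes, 3 of them for alternative starts of Prlr. One of these Prlr windows held a MAF half-site, a FOXA site, a STAT site and an E-box. The Glp1r window stood at 73.2% G and C with 26 CpG, against medians of 52.4% and 6 over all windows, while Ucn3 had 46.4% and 1 and Slc2a2 47.2% and 2. These matches describe the letters in the windows and were not tested against the expression values.

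Markers of the labelled cell type were present: all 8 beta cell markers (Ins1, Ins2, Iapp, Mafa, Nkx6-1, Pdx1, Slc30a8 and G6pc2) were well above background on all 6 arrays. The 75th percentile of signal lay between 812 and 890 on the 6 arrays, between 78.1% and 81.8% of spots were well above background, and 0 spots were saturated. By their scan times the 3 control arrays and exoNOD replicate 1 shared 1 slide and exoNOD replicates 2 and 3 lay on another, so on slide 2 the slide and the treatment cannot be told apart.

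The comparison asks how exosomes of diabetes-prone T lymphocytes alter the genes by which beta cells sense nutrients. All 7 genes had a lower mean in exoNOD than in control cells, and 6 of them, all but Ffar1, were lower in exoNOD cells in each of the 3 pairs of arrays with equal replicate number. Of all tested genes 22.1% were lower in all 3 pairs. In the test without pairing (limma, Benjamini-Hochberg adjustment over all genes, threshold 0.05) 0 of the 7 genes passed. Of all genes 0.105% were called (0.00388% lower and 0.101% higher). Of the 7 genes 1 (Ucn3) had an unadjusted p under 0.05, as did 4302 of all 25805 genes. By the chosen probes the groups overlapped for all 7, while 7.78% of all genes had every exoNOD array below every control array. With the replicate number as a block, which compares the arrays within pairs, 6 of the 7 genes fell, against 1.83% of all genes called lower and 8.7% called in either direction. The block gave 6 of 7 also after quantile normalization (1.46% of all genes called lower) and on the authors' values (1.25%). With normexp background correction and no block, 3 of the 7 passed, namely Ucn3, Slc2a2 and Trpm5 (0.159% of all genes called lower). In that fit limma used a spread pooled over genes in place of each gene's own spread between replicates. The labels do not state that equal numbers share an islet preparation. The pairing followed the replicate numbers in the sample titles. Deviations of the arrays from the group mean correlated for equal numbers at 0.365, 0.280 and 0.480 and otherwise at 0.00897 or below. Deviations within a group cancel out, so positive values for equal numbers by themselves lower the others. In bulk RNA of islet cells, fewer beta cells and less RNA per beta cell cannot be told apart.

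**Figure D1:**
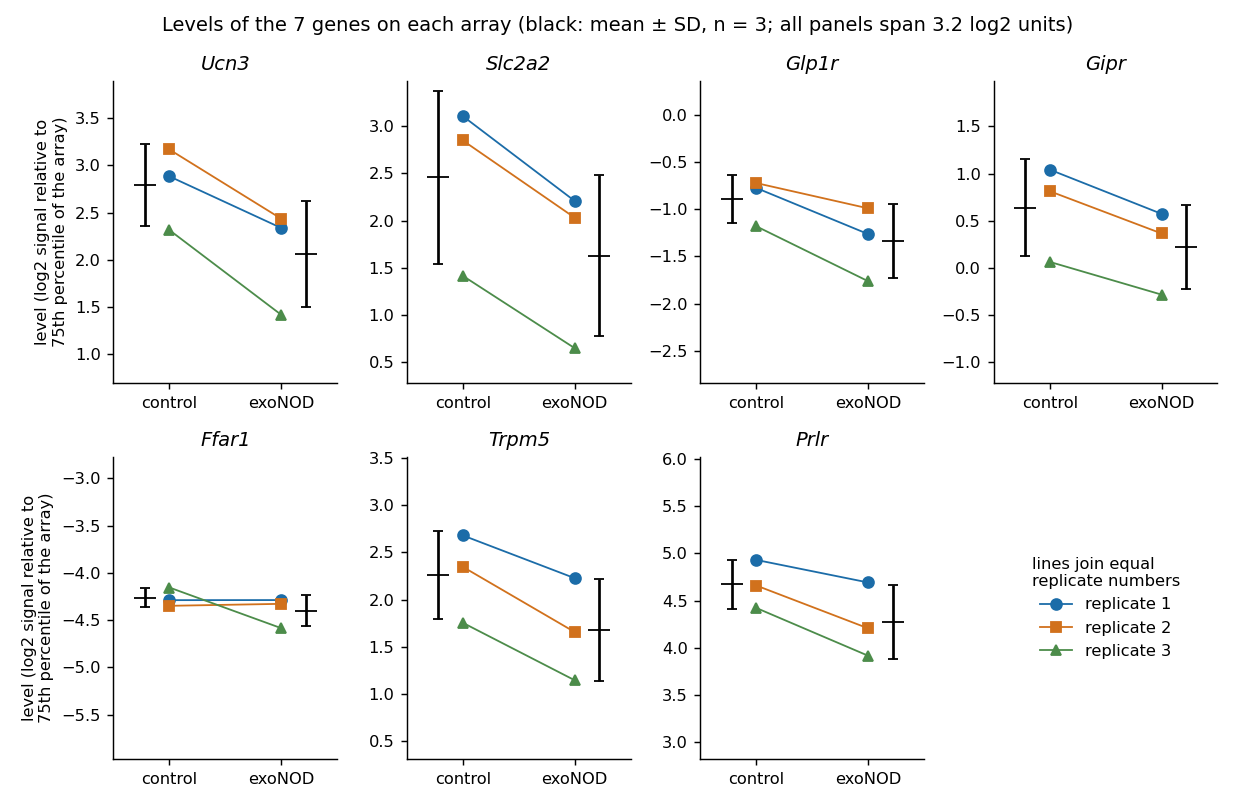
Each panel plots 1 gene's level (log2 signal relative to the 75th percentile of its array) on the 3 control and 3 exoNOD arrays, with lines joining equal replicate numbers and black bars for the mean ± SD (n = 3); every panel spans 3.2 log2 units, and levels are not comparable between panels. Lines for 6 genes run down in all 3 pairs, and replicate 3 is the lowest array of each group for those 6 genes. By the probes plotted, the groups overlap for all 7.

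Ucn3, at 13:3940688-3945349 on GRCm38.p6, encodes urocortin 3, a peptide that beta cells secrete with insulin and that acts on delta cells of the islet. Its level (log2 signal relative to the 75th percentile of the array) was 2.89, 3.17 and 2.32 on control arrays 1, 2 and 3, and 2.34, 2.44 and 1.42 on the exoNOD arrays in the same order. Control replicate 3 was the lowest control and exoNOD replicate 3 the lowest of all, and the groups overlapped narrowly, since control replicate 3 lay just below exoNOD replicates 1 and 2. Control arrays averaged 2.79 ± 0.43 (SD, n = 3) and exoNOD arrays 2.06 ± 0.56, so that exoNOD cells had 60.5% of the control signal. The log2 change was −0.73 ± 0.29 SE (95% interval −1.39 to −0.06, limma adjusted p = 0.275). With the replicate block Ucn3 fell (SE 0.09, adjusted p = 0.00197). Its pair differences were −0.55, −0.73 and −0.90.

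Slc2a2 (3:28697903-28728361) encodes GLUT2, the main glucose transporter of the rodent beta cell. Its levels were 3.11, 2.85 and 1.41 on the control arrays and 2.21, 2.03 and 0.65 on the exoNOD arrays. The groups overlapped, because control replicate 3 lay below exoNOD replicates 1 and 2. Control signals alone spanned 3.23-fold, and the control SD of 0.91 stood at the 99.2th percentile of all tested genes, whose median SD was 0.14. Within pairs the gene differed by nearly the same amount each time, by −0.90, −0.82 and −0.77, which left exoNOD cells with 53.7%, 56.7% and 58.8% of the signal of their control. The mean change of −0.83 had an SE of 0.50 without the block (95% interval −1.96 to 0.31, limma adjusted p = 0.422) and of 0.08 with it (adjusted p = 0.000695). With the block it ranked 2 by p among genes with lower means, Ucn3 ranked 10 and Trpm5 ranked 25.

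Both incretin receptor genes had smaller changes. Glp1r (17:30901867-30936510), the receptor for GLP-1, had levels of −0.77, −0.72 and −1.18 in control and −1.26, −0.99 and −1.76 in exoNOD cells. It was the only one of the 7 genes for which exoNOD replicate 1 lay below all 3 controls of its slide, as it did for 20.8% of all genes. ExoNOD replicate 2 still lay above control replicate 3, so the groups overlapped for this probe. The log2 change was −0.45 ± 0.21 SE (limma adjusted p = 0.321), and the gene fell with the block (adjusted p = 0.0309). A second Glp1r probe gave −0.50 ± 0.17 (0.255 without and 0.0309 with the block, adjusted over 31080 probes). The groups did not overlap for it, with −2.14, −2.12 and −2.46 in control and −2.61, −2.57 and −3.03 in exoNOD cells.

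Gipr (7:19156063-19170248), the receptor for the incretin GIP, had levels of 1.04, 0.81 and 0.07 in control and 0.57, 0.37 and −0.28 in exoNOD cells. Control replicate 3 lay below exoNOD replicates 1 and 2, the same order as for Slc2a2. The log2 change was −0.42 ± 0.28 SE (limma adjusted p = 0.466), and with the block Gipr fell (adjusted p = 0.0150). Its pair differences were close to each other, at −0.47, −0.45 and −0.35, so exoNOD cells kept 72.3%, 73.3% and 78.6% of the signal of their control.

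Ffar1 (7:30860568-30861470) encodes GPR40, the receptor through which long-chain fatty acids enhance insulin release. Its probe was dim, with signals between 37.1 and 45.6 on every array, near the 18.6th percentile of tested genes. Control arrays gave levels of −4.29, −4.35 and −4.15, and exoNOD arrays −4.29, −4.33 and −4.58. Only exoNOD replicate 3 stood lower, and the pair differences were 0.00087, 0.021 and −0.43. The log2 change of −0.14 ± 0.17 SE passed neither without (limma adjusted p = 0.701) nor with the block (0.659), where the 95% interval reached from −0.55 to 0.27. The interval holds the changes of Prlr, Gipr and Glp1r, so it does not show that Ffar1 differed from them.

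Trpm5 (7:143071529-143094642) encodes a calcium-activated cation channel that depolarises the beta cell and supports glucose-stimulated insulin release. Its levels were 2.68, 2.35 and 1.76 in control and 2.23, 1.66 and 1.15 in exoNOD cells. ExoNOD replicate 1 stood within the control range and exoNOD replicates 2 and 3 below it. The log2 change was −0.58 ± 0.29 SE (limma adjusted p = 0.348), and Trpm5 fell with the block (SE 0.08, adjusted p = 0.00317), with pair differences of −0.45, −0.69 and −0.61.

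Prlr (15:10177238-10349190), the prolactin receptor, carries the signal that expands beta cells in pregnancy. Its levels were 4.93, 4.66 and 4.42 in control and 4.69, 4.21 and 3.92 in exoNOD cells. ExoNOD replicate 1 lay above control replicates 2 and 3, while the other exoNOD arrays lay below all controls. The log2 change was −0.40 ± 0.20 SE (limma adjusted p = 0.348), and the gene fell with the block (adjusted p = 0.0289). A second, dimmer probe for the same accession did not pass in either fit. It changed by −0.17 ± 0.16 (adjusted p = 0.623, and 0.229 with the block), so the call of Prlr rests on the brighter probe.

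**Figure D2:**
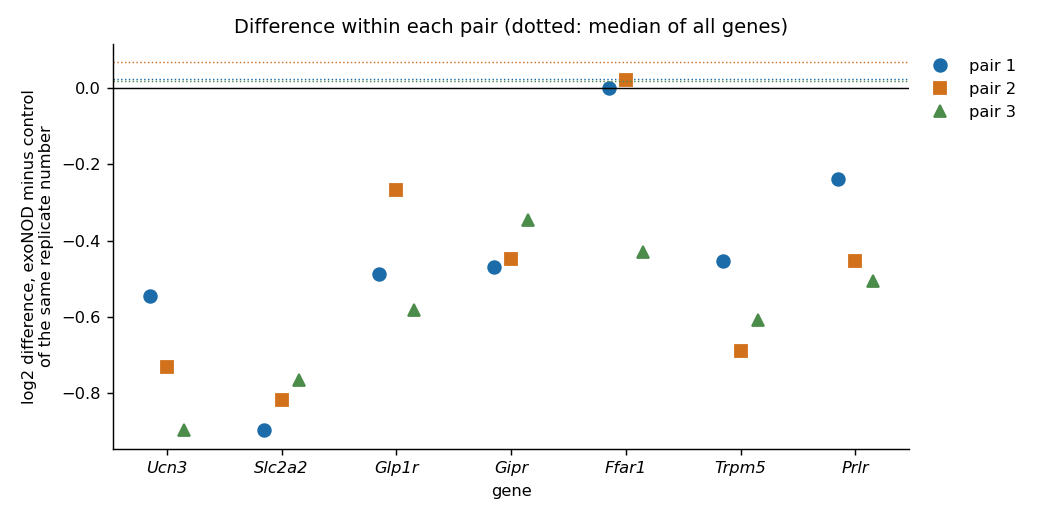
Points give the log2 difference between exoNOD and control arrays of the same replicate number for each gene, and dotted lines the median difference over all tested genes in each pair (0.023, 0.068 and 0.019). Slc2a2 lies between −0.90 and −0.77 in all pairs, and Ffar1 is the only gene with values at or above 0.

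The size of the difference depended on how the arrays were matched. ExoNOD replicate 1, the only exoNOD array scanned with the controls, differed from the mean of the 3 controls by −0.45 for Ucn3, −0.25 for Slc2a2, −0.37 for Glp1r, −0.07 for Gipr, −0.02 for Ffar1, −0.03 for Trpm5 and 0.02 for Prlr. That comparison within slide 1 holds a single exoNOD array, so calls from it say nothing about these genes. Set against control replicate 1 alone, the same array differed by −0.90 for Slc2a2, by −0.55 for Ucn3, by −0.49 for Glp1r, by −0.47 for Gipr, by −0.45 for Trpm5 and by −0.24 for Prlr. The calls with the block also moved when a pair was left out. Without pair 1 the same 6 genes passed, against 728 of all 25805 genes called lower. Without pair 2 only Slc2a2 (limma adjusted p = 0.0226), Ucn3 (0.0469) and Trpm5 (0.0479) did, against 81 of all genes called lower. Without pair 3 Slc2a2, Ucn3, Trpm5 and Gipr did, against 247. Without pair 1 or pair 3 limma used a spread pooled over genes in place of each gene's own, so the counts are not directly comparable.

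Replicate 3 of both groups stood apart for these genes. For 6 of the 7, all but Ffar1, control replicate 3 was the lowest control and exoNOD replicate 3 the lowest exoNOD array, as for 15.4% of all genes. Control replicate 3 lay below the mean of the other controls by −1.56 for Slc2a2, −0.86 for Gipr, −0.76 for Trpm5, −0.71 for Ucn3, −0.43 for Glp1r and −0.37 for Prlr. For all 7 genes the range over the control arrays exceeded the difference between the group means. The summed signal of 11 fibroblast and stellate cell markers was highest on the same arrays, at 79.7 times the 75th percentile on control replicate 3 and 90.7 on exoNOD replicate 3, against 54.4 to 70.3 on the others; its part in the result was not tested.

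Summed signals, which the brightest markers set, and mean log2 levels of the marker lists did not always order the groups alike. The summed signal of the 8 beta cell markers lay between 1091 and 1159 times the 75th percentile in control and between 1065 and 1085 in exoNOD cells. That of 10 alpha cell markers lay between 429 and 448 in control and 404 and 409 in exoNOD cells, and that of 6 delta and PP cell markers between 227 and 306 and between 200.1 and 246. Duct cell markers summed to 4.73 to 6.94 in control and 7.21 to 9.53 in exoNOD cells, and B lymphocyte markers to 0.783 to 0.969 and 1.11 to 1.61, while the 11 macrophage and dendritic cell markers on the array summed to 25.4 to 28.1 and 19.6 to 21.4. T lymphocyte markers overlapped between groups (14.2 to 19.1 and 14.2 to 18.6), as did acinar markers (8.12 to 9.68 and 6.55 to 8.39), and those of Schwann cells and neurons (11.2 to 13.1 and 11.7 to 12.4). Endothelial markers gave 7.36 to 8.47 in control and 8.82 to 9.53 in exoNOD cells. For some lists the sums did not overlap between the groups but the mean log2 levels did. The endothelial mean log2 lay between −2.69 and −2.32 in control and −2.79 and −2.55 in exoNOD cells, lower by its mean where the sum was higher, and with the block 2 of 9 tested endothelial markers fell and 1 rose. The macrophage and dendritic mean log2 lay between −1.62 and −1.33 in control and −1.68 and −1.21 in exoNOD cells, and exoNOD replicate 2 was the highest of all arrays. The alpha mean log2 overlapped too, at 0.70 to 0.86 and 0.70 to 0.80. Duct and B lymphocyte markers were separate by both measures, the duct markers only just by mean log2. The duct mean log2 lay between −2.88 and −2.53 in control and −2.52 and −2.29 in exoNOD cells. That of B lymphocyte markers lay between −3.99 and −3.73 and between −3.24 and −3.07. Pou3f4, Cela2a, Onecut1, Tie1 and Cd3g were not well above background on any array. Among the 10 lists, the number of markers well above background on all 6 arrays was 9 of 10 for alpha, 6 of 6 for delta and PP, 10 of 12 for acinar, 7 of 8 for duct, 8 of 10 for endothelial and 10 of 11 for fibroblast markers. It was 9 of 11 for macrophage, 7 of 9 for T lymphocyte, 5 of 6 for B lymphocyte and 7 of 8 for Schwann cell and neuron markers. The part of these differences in the changes of the 7 genes was not tested.

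Each array was also scaled by the mean log2 level of the 8 beta cell markers, a setting chosen after the data had been seen. This mean was 5.22, 5.09 and 4.92 on the control and 5.03, 4.86 and 4.69 on the exoNOD arrays, so the groups overlapped, and it differed by −0.22. Most of that difference came from Slc30a8 (−0.45), Nkx6-1 (−0.42), Pdx1 (−0.37) and Mafa (−0.30), which fell with the block and also stand among the partners of the mature beta cell described below. The hormone genes Ins1 (−0.12), Ins2 (−0.07) and Iapp (−0.01) and the glucose-6-phosphatase gene G6pc2 (0.02) did not pass. Since Slc30a8, Nkx6-1, Pdx1 and Mafa are part of the scale, it takes away part of any change that other genes share with them. Calls lost under the scaling therefore do not show that the genes concerned were unchanged relative to the hormone genes. Ucn3 then changed by −0.51 (limma adjusted p with the block 0.00882), Slc2a2 by −0.61 (0.00348) and Trpm5 by −0.37 (0.0162), and these 3 genes still fell, against 0.446% of all genes called lower. Glp1r changed by −0.23 (0.114), Gipr by −0.21 (0.0777) and Prlr by −0.18 (0.119), and Ffar1 by 0.08 (0.738), so these did not pass. Without the block 0 of the 7 passed, and 1 had an unadjusted p under 0.05, as did 5368 of all 25805 genes. The median change over all genes went from 0.035 to 0.25 under this scaling.

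**Figure D3:**
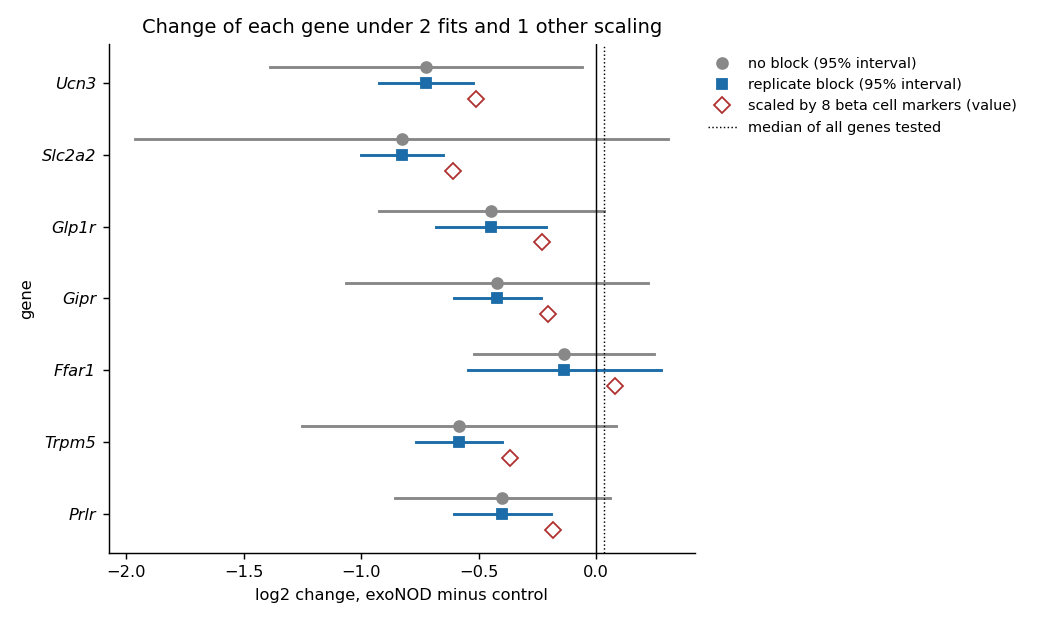
The log2 change, exoNOD minus control, of each gene is plotted without the block (grey circles) and with the replicate block (blue squares), both with 95% intervals, and as a value after scaling by 8 beta cell markers (red diamonds). The block narrows the SE of Slc2a2 from 0.50 to 0.08, and the scaling moves every gene toward or past 0.

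Around these genes, 7 lists of partners were drawn up with earlier results of these data known, and 114 different genes of them were tested. Without the block limma called 0 of the 114, and 22 of them had an unadjusted p under 0.05, as did 4302 of all 25805 genes. With the block 13 fell and 10 rose, against 1.83% and 6.87% of all genes. Among 18 partners of the mature beta cell 6 fell, 0 rose and 12 did not pass, and the list had a median change of −0.12, against 0.035 for all genes. Those that fell with the block were the zinc transporter gene Slc30a8 (−0.45, limma adjusted p = 0.0114), the transcription factors Nkx6-1 (−0.42, 0.0136), Pdx1 (−0.37, 0.0409) and Mafa (−0.30, 0.0429), the oxidoreductase gene Ero1b (−0.51, 0.0198) and, named after its value was seen, Nkx2-2 (−0.32, 0.0434). Pair differences of Slc30a8 were −0.44, −0.42 and −0.48.

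For glucose uptake and sensing, members of the list moved in opposite directions with the block. Of 14 genes 2 rose, 2 fell and 10 did not pass, with a median of −0.08. The hexokinase gene Hk2 changed by 1.04 (limma adjusted p = 0.000617) and Slc2a1, which encodes the glucose transporter GLUT1, by 0.63 (0.0209). The mitochondrial glycerol phosphate dehydrogenase gene Gpd2 changed by −0.34 (0.0427). Thus Slc2a2 fell on the same arrays on which Slc2a1 and Hk2 rose.

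Of 23 genes of incretin and glucagon signalling, 2 fell and 0 rose with the block, and 21 did not pass (median −0.07). These were Vipr2, a receptor for VIP and PACAP (−0.72, limma adjusted p = 0.0159), with pair differences of −0.72, −0.77 and −0.67, and the glucagon receptor gene Gcgr (−0.38, 0.0210). Of 23 fatty acid and other nutrient receptors with their signalling partners 2 fell and 21 did not pass (median −0.08). Itpr2, an IP3 receptor that releases calcium from the endoplasmic reticulum, changed by −0.44 (0.0104) and the calcium-sensing receptor gene Casr by −0.38 (0.0439). The other free fatty acid receptors did not pass, with −0.08 for Ffar2 (0.617), 0.25 for Ffar3 (0.165) and −0.18 for Ffar4 (0.334), and neither did the lipid receptor gene Gpr119 (−0.22, 0.192) or Trpm4, the closest relative of Trpm5 (−0.23, 0.378).

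In the pathway of the prolactin and growth hormone receptors 3 of 17 genes rose with the block, 0 fell and 14 did not pass (median 0.20). They were Socs3 (0.53, limma adjusted p = 0.00487) and Socs1 (0.55, 0.0161), which encode feedback inhibitors of JAK-STAT signalling used by many cytokines, and the repressor gene Bcl6 (0.62, 0.00957). The growth hormone receptor gene Ghr, a relative of Prlr, changed by −0.20 (0.143). In the urocortin and CRH system 4 of 6 genes were tested and 0 passed in either fit, with 0 at an unadjusted p under 0.05 without the block. Its lowest p-values were those of Ucn2 (0.57, adjusted p = 0.198 with the block) and Crhr1 (−0.14, 0.500), and Crhr2, the receptor of urocortin 3, changed by −0.02 (0.933).

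Of 17 genes of immature or dedifferentiated beta cells 5 rose with the block, 1 fell and 11 did not pass, and the median was 0.48. The rises were those of Ldha, a lactate dehydrogenase normally kept low in beta cells (0.98, limma adjusted p = 0.000520), the hormone gene Cck (1.54, 0.00148), the aldehyde dehydrogenase gene Aldh1a3 (0.93, 0.00239), the growth factor receptor gene Pdgfra (1.23, 0.0131) and, named after its value was seen, the gastrin gene Gast (0.84, 0.0153). The fall, likewise named afterwards, was that of the peptide hormone gene Pyy (−0.40, 0.0445). Pdgfra also stands among the fibroblast markers and Pyy among those of delta and PP cells. Several of the genes that rose were dim. Mean control levels were 3.97 for Ldha, −2.22 for Aldh1a3, −2.32 for Cck, −3.36 for Gast and −4.71 for Pdgfra, against −4.26 for Ffar1. With normexp background correction 1 of the 114 partner genes passed. The part of low signal in the median of 0.48 was not tested.

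**Figure D4:**
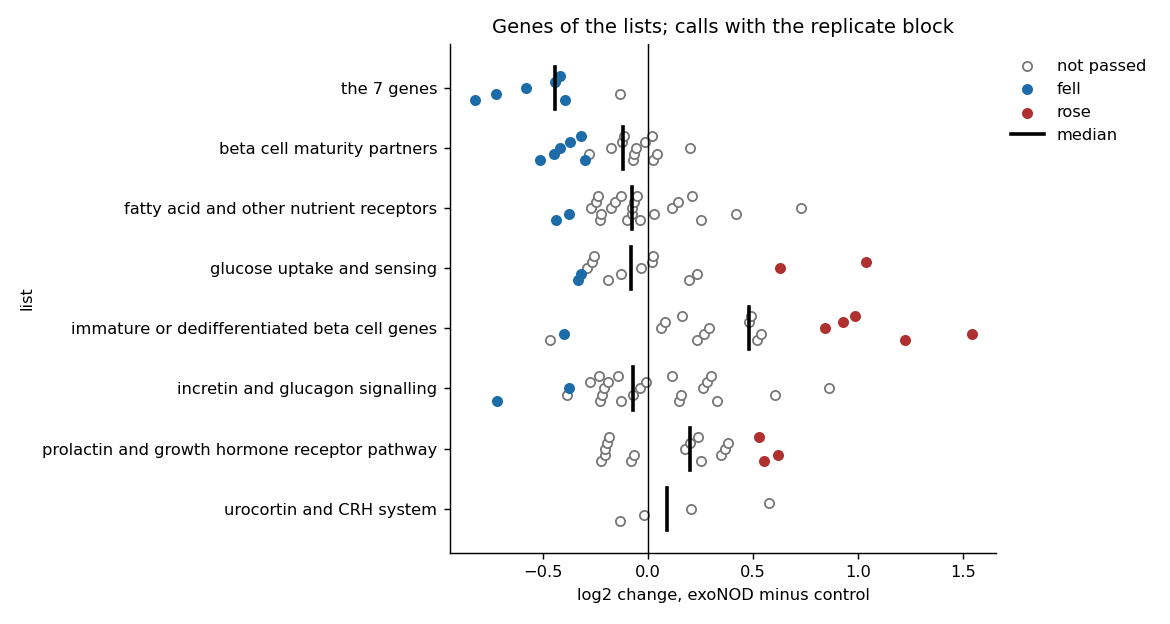
Each point is the log2 change, exoNOD minus control, of 1 gene of the 7 genes described and of the 7 partner lists; filled points passed with the replicate block (blue fell, red rose), and black bars are medians. Of the 7 genes, 6 lie at −0.40 or below, the partners of the mature beta cell centre on −0.12, and the immature or dedifferentiated genes on 0.48.

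The 7 genes also differed in their patterns over the 6 arrays. The measure used centres each gene but does not scale it, so it mixes the size of the variation with its shape. With each gene centred on its own mean, Gipr and Trpm5 were the closest of the 7, with a root mean square difference of 0.14 (log2). Slc2a2 and Ffar1 were the furthest apart, at 0.78, with SDs over the 6 arrays of 0.91 and 0.14. Over named genes with at least as much variation, the pattern closest to Slc2a2 was that of Cox6a2, a subunit of cytochrome c oxidase (0.28), followed by Plut (0.29), a noncoding RNA beside Pdx1. The closest to Ucn3 were Inpp4b (0.17) and Fam81a (0.17), to Glp1r Msrb2 (0.08) and Gpsm1 (0.08), to Gipr Hs3st6 (0.08) and Sfrp5 (0.09), to Trpm5 Prss53 (0.15) and Pcdh8 (0.15), to Prlr Tcim (0.05) and Rgs3 (0.06), and to Ffar1 Myom1 (0.04) and Fut11 (0.05). With so few arrays and 161 to 11609 candidate genes per comparison, such likeness is a description of these arrays.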

How the data were processed

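1-colour (Cy3) Agilent mouse arrays measured total RNA from each culture. The processed signal in the deposited files is an intensity, background-subtracted and detrended within the array by Agilent Feature Extraction 11.0.1.1, per the file headers. The deposited spot flags are other values, 0 or 1, per the file headers. The authors' processed values are on a log2 scale and lie close to a quantile normalization of that signal (median absolute difference between 0.0019 and 0.0032); the further steps that made them are not given in the sources used here.

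Outlier spots were left out, log2 signals were scaled by the array's 75th percentile, spots of a probe were averaged, and 31080 of 39429 probes were kept, those that every array of 1 group or both showed well above background. Symbols came from RefSeq accessions without version (27234 probes). The probe with the highest mean signal stood for its gene (25805 genes, 17272 with a symbol). The comparison used lmFit and eBayes with a trend (limma 3.58.1, R 4.3.3). The fit was run on simulated data with effects shared by equal replicate numbers and with no slide effect. That run therefore tests neither the pairing nor the part of the slide. The deposited files lack the mean signal, so normexp (offset 50) used the median signal. Equal replicate numbers were taken as pairs from the sample titles, and the correlations did not set this choice. So few arrays do not establish the pairing. Slide was inferred from scan times. The number of arrays limits the precision.

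Members and lists were chosen with earlier results of these data known. Named genes were the 7 members, up to 4 passing members of each list (otherwise 2) by p with the block, a few direct partners, and for each member the 2 genes with the nearest pattern. The values of 1 gene that this rule names are not reported here.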

Additional observations from a re-analysis of the deposited data

How the results depend on the processing

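The changes of the 7 genes were followed over 24 other settings, which are not separate checks of their sign. The replicate block, no filter, the filter for all 6 arrays and no trend left each estimate as it was. Quantile normalization, the authors' values and the scaling by the beta cell markers gave equal estimates with and without the block. So did slide as a block and slide 1 alone. Of the 168 changes 162 kept their negative sign. The exceptions were Prlr with slide as a block and in slide 1 alone (0.021 in each) and Ffar1 with normexp (0.66), with the replicate block without pair 3 (0.011) and after scaling by the beta cell markers without and with the block (0.080 in each); their causes were not tested. Normexp moved the median change of all genes to 0.35 and left Glp1r at −0.02. The 7 genes had 6 calls with the replicate block, 6 with the block after quantile normalization, 6 with the block on the authors' values, 3 with normexp and 3 with the block after scaling by the beta cell markers; without the block, 0 were called after quantile normalization (1 at an unadjusted p under 0.05), median scaling (4) or in the authors' values (1). Leaving out 1 pair gave 3 to 6 calls with the block, and leaving out 1 array gave 0 without it. In the latter fits 0 to 6 of the 7 had an unadjusted p under 0.05, against 2426 to 6320 of all genes. Over the partner lists the calls with the replicate block were 23 (13 lower, 10 higher). With it after quantile normalization they were 17 (8 lower, 9 higher), and with it on the authors' values 15 (6 lower, 9 higher). With the block after scaling by the beta cell markers they were 34 (3 lower, 31 higher), against 115 lower and 7442 higher of all 25805 genes. They were 1 after that scaling without the block, 1 with normexp, 9 to 29 without 1 pair and 0 to 4 without 1 array. Over all genes the 27 calls became 2246 with the replicate block, 1201 with it after quantile normalization, 1101 with it on the authors' values and 7557 with it after scaling by the beta cell markers. They became 161 with normexp and 13 with median scaling. In limma 0 were called in the authors' values (3842 at an unadjusted p under 0.05), with no filter (4638), with no trend (4365), with slide as a block (932) and in slide 1 alone (1143). Leaving out 1 array gave 0 to 1278 calls: 1278 without exoNOD replicate 1, 77 without control replicate 3, 2 without exoNOD replicate 3, and 0 when exoNOD replicate 2 (3056 at an unadjusted p under 0.05) or else control replicate 2 (2426) or 1 (2559) was dropped. With the replicate block there were 4186, 457 and 1745 calls without pair 1, 2 and 3. For normexp and for the block without pair 1 or 3, limma estimated an unlimited prior, so its p-values there use the spread pooled over genes in place of each gene's own. Ffar1 had signals of 37.1 to 45.6, on arrays whose lowest signal well above background began at 9.08. The part of its low signal in its result was not tested. In a group of 3 arrays, a single array sets much of the spread.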
